A study of Homo sapiens with 9 samples.

Results

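PADI2, METTL7A, METTL7B, ABCA13, OLAH, PSAPL1 and KLHDC7A are 7 protein-coding genes, of 60880 gene IDs counted, that had many reads in cells treated with antibody-bearing gold particles and almost none in cells treated with the antibody alone. They were matched by symbol to their Ensembl IDs and were selected on their counts in these same libraries, so their difference from the antibody group is given as a description without a test. Poly-A RNA was sequenced from SNU5, an established human gastric carcinoma line, after 24 h of treatment. One group received gold nanorods joined by polyethylene glycol to ramucirumab, an antibody against VEGFR2 (AuNR-PEG-Ab, NR group). Another received gold spheres with the same linker and antibody (AuSP-PEG-Ab, SP group), and the control received ramucirumab alone (Ab group). All 3 groups thus carried the antibody, at 8 μg/mL, and each had 3 libraries, named here by group and replicate number. Libraries of untreated cells, of bare particles and of the linker with antibody were not analysed here, so gold, linker and their combination cannot be told apart. The labels do not say whether the libraries of a group came from separate cultures. The study's text calls them biological replications and says of its in vitro experiments in general that they were repeated independently, and p-values here measure only the spread between these libraries.

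The total counts of NR1, NR2 and NR3 were 25735410, 13863155 and 15943980. Those of SP1, SP2 and SP3 were 21682836, 22914759 and 20601906, and those of Ab1, Ab2 and Ab3 were 19566064, 26318227 and 21031024. Where a library had 0 counts, the expected count may still be as high as 3, a floor that corresponded to 0.114 to 0.216 CPM (counts scaled to a common library total). The floors and the exact counting intervals of ratios given here cover counting error only, whereas intervals of log2 fold changes come from the edgeR fit and include the spread between libraries.

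The 7 genes do not form one pathway. PADI2 is a peptidylarginine deiminase, a calcium-dependent enzyme that turns arginine residues of proteins, histones among them, into citrulline. METTL7A and METTL7B are membrane methyltransferases of the endoplasmic reticulum and of lipid droplets that can methylate thiols, ABCA13 is a very large member of the lipid-transporting ABCA family, and OLAH is a thioesterase that releases fatty acids from fatty acid synthase before they reach full length. PSAPL1 is a relative of prosaposin, the precursor of the saposins that help lysosomal enzymes to degrade sphingolipids. KLHDC7A belongs to the proteins with kelch repeats, a fold that often binds other proteins.

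On GRCh37, PADI2 lies on the minus strand at chr1:17393256-17445946 and KLHDC7A on the plus strand at chr1:18807424-18812468, with 1.36 Mb between them. METTL7A (chr12:51317255-51326293) and METTL7B (chr12:56075520-56078395) are both on the plus strand of chromosome 12, 4.75 Mb apart. OLAH is at chr10:15074226-15115852 and ABCA13 at chr7:48211055-48687093, both on the plus strand. PSAPL1 (chr4:7432012-7436657, minus strand) lies within the span of SORCS2, which is on the other strand, and none of its bases are in an exon of that gene. PSAPL1 and KLHDC7A have a single exon in their canonical transcripts, METTL7A and METTL7B have 2, OLAH 8, PADI2 16 and ABCA13 62.

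The proteins differ as widely in size, from 244 residues in METTL7A and METTL7B to 5058 in ABCA13. METTL7A and METTL7B were the only related pair among the 7, with 58.6% identical residues over 244 aligned. Their transcripts shared no stretch of 100 bases, and neither did PADI2, ABCA13, OLAH, PSAPL1 or KLHDC7A with a transcript of any other gene. The exception was METTL7A, of whose 100-base stretches 20.7% also occurred in ENSG00000289695, an overlapping gene model on the same strand that is not among the counted IDs. METTL7B overlapped exons of ITGA7 on the opposite strand over 3.34% of its exon length. Whether the counting used strand is not given in the sources used here, so reads in that overlap cannot be assigned to one of them.

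The 300 bases around the start of the canonical transcript (250 before it and 50 from it on) were read from GRCh37 for each gene, because genes that appear together may share promoter features. For METTL7A and OLAH that start lies inside the annotated span of the gene, and starts further upstream were not read. Of the promoters read, 4 are shown, those of the related METTL7 pair, that of PADI2 with the most motif matches and that of PSAPL1 with the most kinds of motif. Capitals mark every match, on either strand, to TATAAA (the core of the TATA box), CCAAT (the box of that name), GGGCGG (GC box), TGACTCA (AP-1 site), CACGTG (E-box) or AGGTCA (nuclear receptor half-site).
PADI2, chr1:17445897-17446196, minus strand: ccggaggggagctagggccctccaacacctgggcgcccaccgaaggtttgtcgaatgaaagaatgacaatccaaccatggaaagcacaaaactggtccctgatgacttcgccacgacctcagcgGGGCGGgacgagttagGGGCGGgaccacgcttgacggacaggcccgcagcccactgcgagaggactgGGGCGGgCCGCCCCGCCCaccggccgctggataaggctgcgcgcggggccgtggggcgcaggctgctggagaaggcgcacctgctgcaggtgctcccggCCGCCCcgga
METTL7A, chr12:51318548-51318847, plus strand: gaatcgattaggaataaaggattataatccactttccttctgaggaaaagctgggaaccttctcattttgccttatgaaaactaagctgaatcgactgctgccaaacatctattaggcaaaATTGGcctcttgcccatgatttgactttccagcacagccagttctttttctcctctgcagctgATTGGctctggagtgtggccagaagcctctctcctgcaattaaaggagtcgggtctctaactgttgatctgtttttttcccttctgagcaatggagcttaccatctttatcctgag
METTL7B, chr12:56075270-56075569, plus strand: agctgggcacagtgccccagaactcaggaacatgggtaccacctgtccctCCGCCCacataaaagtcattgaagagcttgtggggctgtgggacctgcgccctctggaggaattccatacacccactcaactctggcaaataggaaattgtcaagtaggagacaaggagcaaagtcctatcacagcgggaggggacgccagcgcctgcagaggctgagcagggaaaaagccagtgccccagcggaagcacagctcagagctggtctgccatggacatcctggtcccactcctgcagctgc
PSAPL1, chr4:7436608-7436907, minus strand: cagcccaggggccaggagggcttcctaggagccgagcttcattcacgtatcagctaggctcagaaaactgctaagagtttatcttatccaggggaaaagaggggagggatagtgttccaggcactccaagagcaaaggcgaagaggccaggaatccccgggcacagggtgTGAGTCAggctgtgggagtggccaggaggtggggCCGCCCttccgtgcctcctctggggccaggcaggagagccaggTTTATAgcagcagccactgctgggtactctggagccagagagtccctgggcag

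The promoters shared little. PADI2 had 28 CpG dinucleotides, 69.0% GC and 6 GC boxes, whereas METTL7A had 3 CpG, 43.7% GC and a pair of CCAAT boxes 129 and 66 bases before the start. METTL7B had 6 CpG and 1 GC box, 200 bases before the start. PSAPL1 had 6 CpG and was the only one of the 7 with an AP-1 site, 80 bases before the start, or with the letters TATAAA, there on the strand opposite to the gene (printed as TTTATA), in a match that begins 3 bases before the start. ABCA13 held none of the 6 motifs, and OLAH (1 CpG) and KLHDC7A (5 CpG) held 1 GC box each. Over 19672 promoters of protein-coding genes the median was 23 CpG and 63.7% GC, so PADI2 alone was above the median in CpG and the other 6 were below it. A GC box was in 5 of the 7 promoters and in 61.6% of all promoters, and a CCAAT box in 1 of 7 and in 36.1%. TATAAA was in 9.60% of all promoters, TGACTCA in 3.55%, CACGTG in 8.80% and AGGTCA in 11.1%, and the last 2 of these were in none of the 7. These are matches of letters in a short window and not evidence of binding, and no motif was shared by all 7.

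In the Ab libraries the 7 genes were near the floor. Of their 21 values there, 9 were 0 and the highest was 7 counts, whereas the 42 values in NR and SP ran from 58 to 300 counts. Summed over the 7 genes, NR libraries held 45.2, 51.8 and 52.2 CPM, SP libraries 54.8, 53.6 and 52.9 CPM, and Ab libraries 0.416, 0.652 and 0.291 CPM. In bulk RNA, fewer cells with a transcript and less transcript per cell cannot be told apart. All 7 were called higher in both comparisons with Ab (adjusted p of at most 0.05 and at least 2-fold), which their selection on these counts fixed and from which nothing is read, while 12.4% of all genes tested were called higher in NR and 12.6% in SP. Both comparisons used the same 3 Ab libraries.

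**Figure D1:**
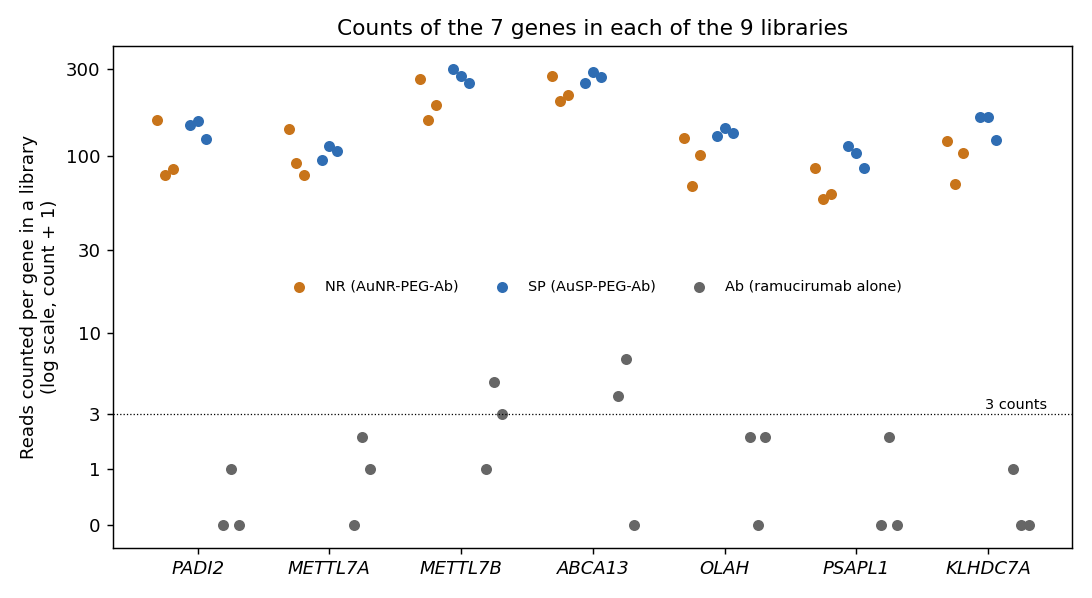
Reads counted per gene (vertical axis, log scale of count + 1) for the 7 genes in each of the 9 libraries, 1 point per library, with NR in orange, SP in blue and Ab in grey and a dotted line at 3 counts. All NR and SP points lie between 58 and 300 counts and all Ab points between 0 and 7.

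PADI2, the citrullinating enzyme, had 158, 79 and 85 counts in NR1 to NR3, 147, 155 and 124 in SP1 to SP3, and 0, 1 and 0 in Ab1 to Ab3. Its only read in the Ab group was in the library with the largest total. The levels were 5.69 ± 0.405 CPM in NR, 6.46 ± 0.411 CPM in SP and 0.0128 ± 0.0221 CPM in Ab (SD, n = 3). The ratio of its counts, scaled for library size, was 380 for NR over Ab (95% exact counting interval 67.8 to 15070) and 427 for SP over Ab (76.3 to 16920). These wide intervals rest on 1 read in Ab2, without which no Ab read of PADI2 was left.

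Both METTL7 genes were high in NR and SP and low in Ab, and METTL7B was the more abundant in all groups. METTL7A had 140, 91 and 79 counts in NR, 95, 114 and 106 in SP, against 0, 2 and 1 in Ab. The scaled ratio of METTL7A was 122 over Ab in NR (41.4 to 595) and 105 in SP (35.7 to 514). Without Ab2 it was 221 and 191, and without Ab1 it was 86.5 and 74.6. METTL7B had 264, 158 and 191 counts in NR, 300, 275 and 252 in SP, against 1, 5 and 3 in Ab. A level could be estimated in Ab for METTL7B, 0.130 ± 0.0711 CPM (SD, n = 3), against 11.1 ± 0.864 CPM in NR and 12.6 ± 1.003 CPM in SP. Its scaled ratio was 80.4 for NR over Ab (42.1 to 177) and 92.2 for SP over Ab (48.3 to 202).

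Among the lipid genes, ABCA13 had 274, 199 and 215 counts in NR, 250, 289 and 271 in SP, against 4, 7 and 0 in Ab. Ab1 and Ab2 held all of its 11 Ab reads, and Ab3 had none. The scaled ratio of ABCA13 was 73.9 over Ab in NR (41.0 to 149) and 73.9 in SP (41.1 to 149). It depended on the Ab libraries, with 123 in both groups without Ab2 and 50.7 without Ab3. OLAH, the thioesterase, had 126, 68 and 101 counts in NR, 129, 143 and 134 in SP, against 2, 0 and 2 in Ab. The scaled ratio of OLAH was 87.1 in NR (33.7 to 322) and 102 in SP (39.5 to 376), and without Ab2 it was 52.6 and 61.5.

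PSAPL1 had the lowest counts of the 7 summed over the NR libraries and over the SP libraries. It had 86, 58 and 62 counts in NR, 113, 104 and 86 in SP, against 0, 2 and 0 in Ab. The scaled ratio of PSAPL1 was 122 in NR (33.2 to 1011) and 152 in SP (41.7 to 1261), and both of its Ab reads were in Ab2. KLHDC7A, the kelch-repeat protein, had 121, 70 and 104 counts in NR, 164, 164 and 123 in SP, against 1, 0 and 0 in Ab. Its scaled ratio was 348 in NR (62.0 to 13810) and 452 in SP (80.8 to 17910), and without Ab2 it was 211 and 273. Its single Ab read was in Ab1, and without that library none was left. For none of the 7 genes did the Ab libraries overlap the others, and the smallest gap, in ABCA13, left the lowest NR or SP library 39.5 times above the highest Ab library in CPM.

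In the Ab libraries, 5 genes had at most 2 counts in any library and so lay under 3 counts throughout, and METTL7B and ABCA13 lay above it with up to 5 and 7 counts. With the floor of 3 counts in each Ab library, the lower bounds in NR were 41-fold for PADI2, 40.5 for METTL7A, 38.5 for OLAH, 27.3 for PSAPL1 and 38.9 for KLHDC7A. In SP they were 46.6, 34.5, 44.5, 33.2 and 49.3 in the same order. These bounds rest on the floor per library and the counting intervals on the reads found in Ab, so their lower ends differ. For OLAH alone the counting interval began under the bound, at 33.7 in NR and 39.5 in SP. Its bound is therefore not the smallest ratio that its counts allow. The raw counts of NR1 were the highest of the NR libraries for all 7 genes, and NR1 also had the largest total of that group. After scaling, only PADI2 was highest in NR1. The coefficient of variation between libraries was 7.13% (PADI2) to 17.8% (KLHDC7A) in NR and 4.63% (OLAH) to 11.8% (KLHDC7A) in SP.

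Per exon length, METTL7B stood far above the rest in both particle groups. Its level was 30.9 ± 2.70 TPM (counts per length of the merged exons of a gene, scaled to a common total, SD, n = 3) in NR and 35.4 ± 2.75 TPM in SP. OLAH followed with 8.36 ± 1.34 TPM in NR and 9.80 ± 0.408 TPM in SP, and its libraries did not overlap those of the gene above or below it in the order. The next levels in NR were 5.03 TPM for METTL7A, 3.90 for KLHDC7A, 3.46 for PADI2, 2.97 for PSAPL1 and 2.44 for ABCA13, and each of these neighbours overlapped the next in its libraries. In SP, KLHDC7A (5.02 TPM) was above METTL7A (4.35 TPM), followed by PADI2 (3.99), PSAPL1 (3.67) and ABCA13 (2.39), and of these neighbours only PSAPL1 and ABCA13 did not overlap. ABCA13 had the highest or second highest counts of the 7 in every NR and SP library and the lowest level per length, since its merged exons, of 19075 bases, are the longest. Merged exons can be longer than the canonical transcript (6000 against 4361 bases in PADI2). Levels by transcript were not computed, and the order of genes close in level may depend on the length used. Among the 33055 genes with a read in any library, the 7 stood between the percentiles 58.7 and 85.9 of TPM in NR and SP and at or under the percentile 46.6 in Ab.

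**Figure D2:**
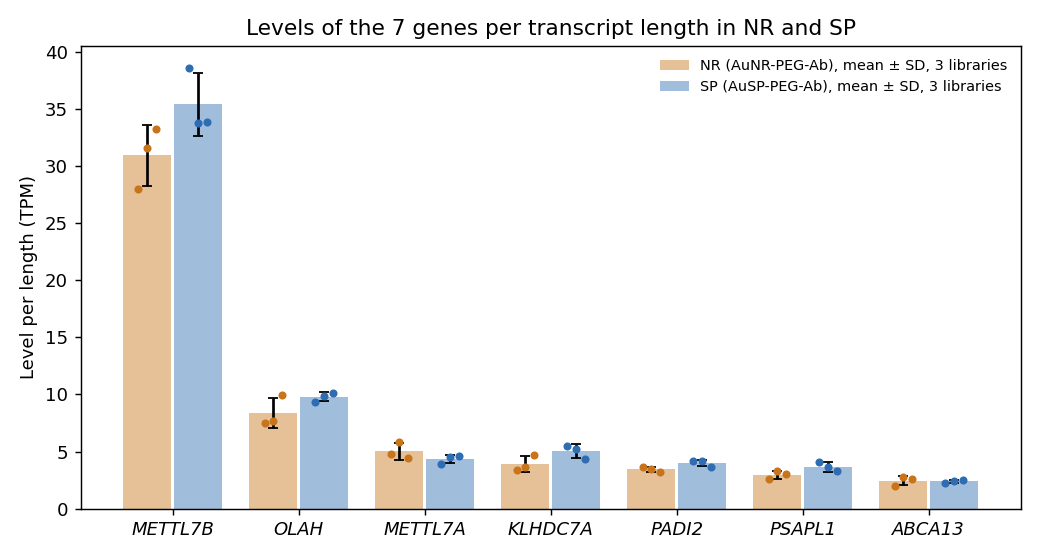
Level per merged exon length (TPM, vertical axis) of the 7 genes in the NR (orange) and SP (blue) groups, with bars for the mean, error bars for the SD of 3 libraries and 1 point per library. METTL7B reached 30.9 TPM in NR and 35.4 in SP, and the other 6 genes stayed under 10.2 TPM in every library.

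The study compared rods with spheres at the same antibody dose. The 7 genes were selected for high counts with both kinds of particle, so a gene present with only one kind could not have been among them, while the difference between rods and spheres itself was not used. None of the 7 differed between NR and SP at an adjusted p of 0.05 in the edgeR fit (quasi-likelihood, Benjamini-Hochberg over 14903 genes), in which 66 genes (0.443%) passed. One gene had an unadjusted p under 0.05, KLHDC7A, where 1922 of all genes did. DESeq2 gave no adjusted p for any of the 7 in this comparison, and in it 0 of them had an unadjusted p under 0.05.

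KLHDC7A was lower in NR, with 4.68, 5.02 and 6.48 CPM against 7.50, 7.07 and 5.94 CPM in SP. NR3 was above SP3, so the groups overlapped. Its log2 fold change was -0.36 ± 0.15 (SE, 95% interval -0.67 to -0.05) with an edgeR p of 0.0266 and an adjusted p of 0.310.

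PSAPL1 had a log2 fold change of -0.30 (95% interval -0.66 to 0.05, edgeR adjusted p = 0.473). OLAH had -0.22 (-0.53 to 0.09, edgeR adjusted p = 0.572), METTL7B -0.19 (-0.40 to 0.03, edgeR adjusted p = 0.472) and PADI2 -0.18 (-0.47 to 0.11, edgeR adjusted p = 0.634). The values of METTL7A were in the other direction, at 0.22 (-0.11 to 0.54, edgeR adjusted p = 0.600), and those of ABCA13 were 0.03 (-0.20 to 0.25, edgeR adjusted p = 0.952). ABCA13 turned to -0.06 without NR2, -0.02 without NR3 and -0.03 without SP1. Thus 5 genes had lower and 2 had higher estimates in NR, and NR and SP libraries overlapped for all 7. On a linear scale the intervals ran from 0.627-fold (KLHDC7A) to 1.46-fold (METTL7A), so a difference between rods and spheres of up to that size was not excluded by these libraries.

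**Figure D3:**
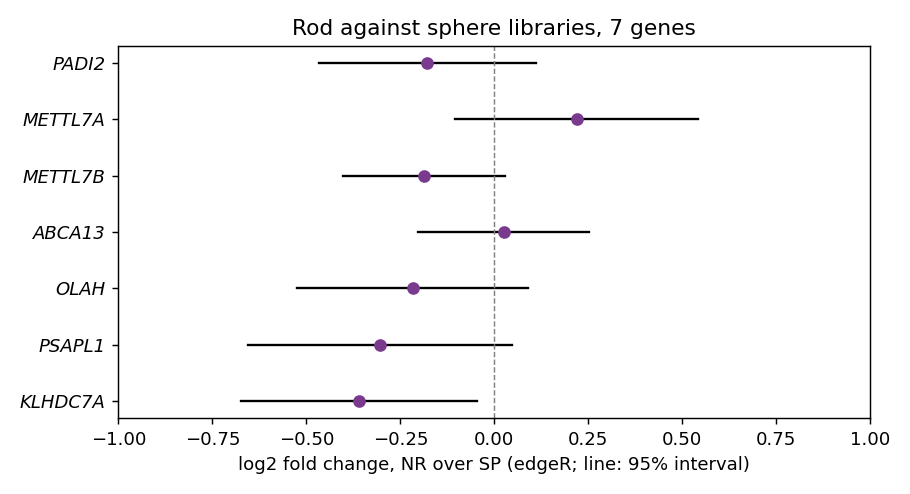
Log2 fold change of NR over SP (horizontal axis, edgeR) for each of the 7 genes, with points for the estimate and lines for the 95% interval. Estimates ran from -0.36 (KLHDC7A) to 0.22 (METTL7A), and the interval of KLHDC7A was the only one that did not reach 0.

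Of 33055 genes with a read in any library, 8 (0.0242%) had at most 3 counts in every Ab library and at least 50 in every NR and SP library, and 0 had the opposite pattern. These limits were chosen after the values were seen, and 5 of the 8 genes were PADI2, METTL7A, OLAH, PSAPL1 and KLHDC7A, selected on these same counts. METTL7B and ABCA13 did not meet them. The other 3 were MEOX1, a homeobox transcription factor, SUSD2, a membrane protein with a sushi domain, and VAV3, an exchange factor for small GTPases. VAV3 had 139, 71 and 73 counts in NR, 96, 118 and 85 in SP and 0 in each Ab library, which put it at least 36.1-fold higher in NR and at least 32.6-fold higher in SP.

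The genes whose levels were most like those of each member were ranked by the Euclidean distance of log2(CPM + 0.5) over the 9 libraries, among 15557 genes. PADI2, OLAH and KLHDC7A were each among the 3 nearest of one another, at distances of 0.49 to 0.62, and METTL7A was also among the 3 nearest to PADI2 (0.80). METTL7B and ABCA13 were close to each other (0.71), and MMP7, a secreted matrix protease, and OLFML2B, an extracellular olfactomedin-like protein, were among the 3 nearest of both. VAV3 was nearest to METTL7A (0.51) and SUSD2 nearest to PSAPL1 (0.29). SUSD2 had 97, 55 and 60 counts in NR, 117, 95 and 94 in SP, against 0, 3 and 1 in Ab. MAP1A, a microtubule-associated protein, was among the 3 nearest to both OLAH (0.68) and KLHDC7A (0.86), and ENSG00000254290, a gene without a symbol, was among those of PSAPL1 (0.85). A gene at the same level in both particle groups and near 0 in Ab is close by construction of this measure.

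Related genes were taken from lists written by family, substrate or pathway, 123 genes without the 7, of which 95 had enough counts for the edgeR test. In NR against Ab, 23 of the 95 were called higher, beside 12.4% of all genes tested, and 5 were called lower, beside 10.3%. In SP against Ab, 23 were called higher, beside 12.6%, and 4 lower, beside 10.6%. The median log2 fold change of the 95 was 0.45 in NR and 0.39 in SP, beside -0.01 over all genes tested in each. A further 53 in NR and 51 in SP passed the adjusted p with a change of less than 2-fold. Between NR and SP none of 93 tested was called (7 had an unadjusted p under 0.05, and DESeq2 gave an adjusted p for 54 and called none), and LSS, of sterol synthesis and named for this value, alone passed the adjusted p. None of the 123 met the limits of 3 and 50 counts given above.

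**Figure D4:**
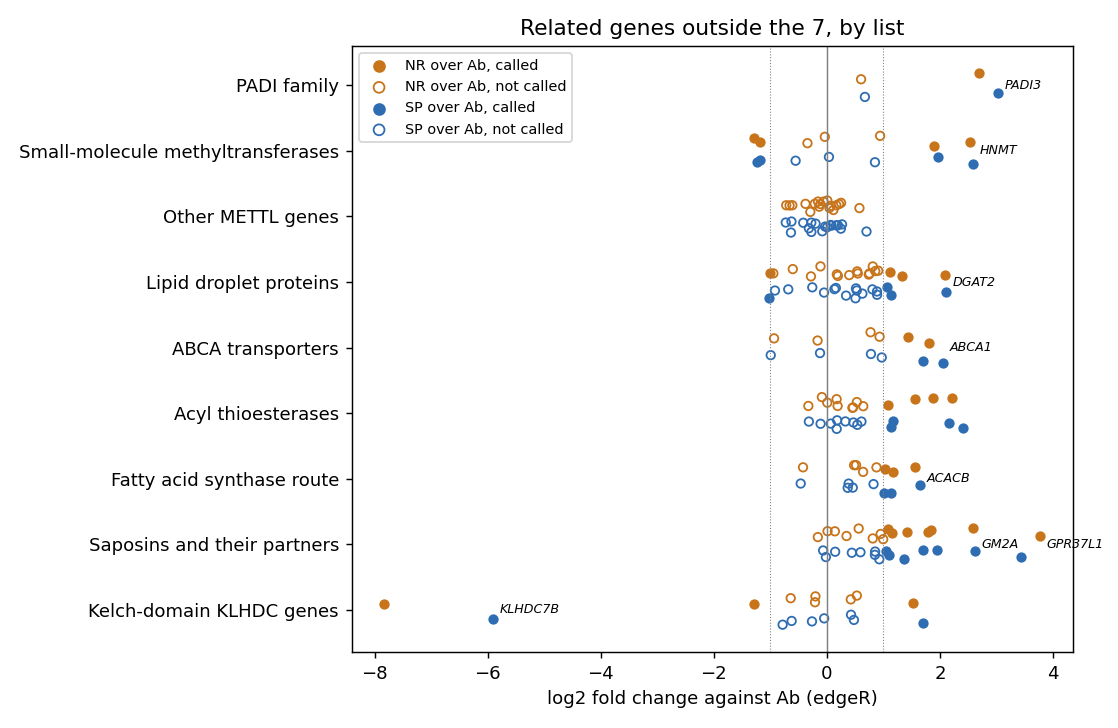
Log2 fold change against Ab (horizontal axis, edgeR) of the related genes outside the 7, by list, with 1 point per gene and NR in orange and SP in blue. Filled points were called (adjusted p of at most 0.05 and at least 2-fold, dotted lines at 2-fold), open points were not, and KLHDC7B stands apart at -7.83 in NR and -5.91 in SP.

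In the PADI family, only PADI3, which acts in skin and hair, was called beside PADI2. PADI3 had 20, 10 and 10 counts in NR, 19, 20 and 20 in SP, against 1, 5 and 1 in Ab, so its counts were far below those of PADI2 in NR and SP. It rose by a log2 fold change of 2.69 ± 0.55 in NR and 3.03 ± 0.52 in SP (SE, edgeR adjusted p = 9.44e-05 and 8.77e-06), and without Ab2 the values were 3.67 and 4.015. PADI1, another epidermal deiminase, was present in all groups, with 44 to 84 counts in Ab, and passed the adjusted p with smaller changes (0.61 in NR and 0.67 in SP). PADI4, best known from neutrophils, had its higher counts in Ab, with 5, 8 and 7 there, against 2, 0 and 1 in NR and 4, 0 and 2 in SP. PADI6, of the oocyte, had at most 3 counts, and the low-count filter left both PADI4 and PADI6 out of the main test. The proteins of PADI1 and PADI3 share 53.3% and 52.6% of aligned residues with PADI2.

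The 2 METTL7 genes were not accompanied by the other genes named METTL, most of which methylate RNA or protein. All 18 were tested and 0 were called in either comparison by edgeR or DESeq2. In edgeR, 11 had an unadjusted p under 0.05 in NR and 12 in SP, and 11 passed the adjusted p in each, with changes in both directions. METTL21A (-0.66 in NR and -0.73 in SP), METTL22 (-0.72 and -0.63) and METTL4 (-0.61 and -0.64) had the lower values, and METTL9 had 0.25 and 0.20. Methyltransferases of small molecules moved in both directions. HNMT, which inactivates histamine, had 181, 99 and 104 counts in NR, 160, 127 and 174 in SP, against 21, 33 and 24 in Ab, a rise of 2.54 ± 0.19 in NR and 2.58 ± 0.20 in SP (SE, edgeR adjusted p = 1.19e-12 and 5.79e-12). GAMT, of creatine synthesis, rose by 1.90 in NR and 1.96 in SP. NNMT, which methylates nicotinamide, changed by -1.19 in NR and -1.23 in SP and was called lower in both. TPMT, the cytosolic thiopurine methyltransferase that also acts on a thiol, passed the adjusted p with 0.94 and 0.85.

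Of the lipid droplet proteins, the compartment in which METTL7A and METTL7B are found, 18 of 27 were tested and 3 were called higher and 1 lower in each comparison. DGAT2, which makes triglycerides, had 504, 259 and 301 counts in NR, 415, 457 and 383 in SP, against 103, 92 and 97 in Ab. It rose by 2.09 ± 0.13 in NR and 2.102 ± 0.124 in SP (SE, edgeR adjusted p = 1.08e-14 and 1.13e-14). SQLE, of cholesterol synthesis, rose by 1.33 in NR and 1.14 in SP. ABHD5, the activator of triglyceride lipase, was called lower (-1.01 and -1.03) just beyond the 2-fold limit, and PLIN2, a coat protein of the droplet, had -0.95 and -0.92. The call of ABHD5 was lost without Ab2 in both comparisons (-0.96 and -0.98) and without Ab3 in NR (-0.998).

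Among the ABCA transporters, 6 of 11 were tested beside ABCA13 and 2 were called, both higher. ABCA1, which moves cholesterol out of cells, had 215, 91 and 93 counts in NR, 183, 217 and 143 in SP, against 34, 66 and 32 in Ab. It rose by 1.81 ± 0.20 in NR and 2.06 ± 0.18 in SP (SE, edgeR adjusted p = 3.33e-09 and 7.18e-11). ABCA12, a lipid transporter of the skin and among the closest relatives of ABCA13 by sequence (44.2% of 2505 aligned residues), had 22, 8 and 10 counts in NR, 21, 19 and 16 in SP, against 5, 5 and 7 in Ab. It was called higher at 1.43 in NR and 1.71 in SP, and its NR call was lost with DESeq2 (adjusted p = 0.0834) and in edgeR without NR1 (adjusted p = 0.0660). ABCA2 (0.93 and 0.97), ABCA7 (0.77 and 0.78) and ABCA5 (-0.93 and -0.99) passed the adjusted p with smaller changes. In SP, ABCA5 passed the 2-fold limit as lower in 4 alternatives (down to -1.05) and ABCA2 as higher without Ab1 (1.01), and DESeq2 called 1 of these transporters higher and 1 lower in NR.

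OLAH acts on the product of fatty acid synthase. FASN itself had 12838, 7320 and 8358 counts in NR, 10345, 12053 and 10388 in SP, against 4667, 5829 and 4569 in Ab, so its transcript was abundant in every group. It rose by 1.17 ± 0.05 in NR and 1.13 ± 0.05 in SP (SE, edgeR adjusted p = 4.47e-19 and 8.39e-18). Of the 8 genes of the route, all were tested, and ACACA and ACACB, the carboxylases that supply malonyl-CoA, were the other ones called higher in both comparisons. ACACB rose by 1.56 and 1.64. ACACA had 1.03 in NR and 1.01 in SP, and its SP call was lost in several alternatives, with values of 0.951 to 0.999. ACLY passed the adjusted p with 0.88 and 0.83. Of the other acyl thioesterases, 13 of 16 were tested and 4 were called higher in each comparison, among them ACOT13 (1.08 and 1.13) and ACOT1 (1.56 and 1.17), whose reads may be shared with its near-identical neighbour ACOT2. ACOT7 (0.46 and 0.47) and LYPLA2 (0.53 and 0.54) passed the adjusted p only.

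The list of saposins and their partners holds relatives of PSAPL1, lysosomal enzymes and other proteins such as GM2A, GRN and GPR37L1. It had more calls than any other of these lists, with 7 of 15 tested called higher in each comparison, enzymes and other partners among them. None was called lower in edgeR, where 1 in NR and 0 in SP had a lower value at an unadjusted p under 0.05, or in DESeq2. PSAP, the parent gene with 48.0% of aligned residues identical to PSAPL1, was among the abundant genes of all groups (23085 to 42370 counts in NR and 30237 to 36751 in Ab) and had log2 fold changes of only 0.14 and 0.15. GM2A, the activator protein for ganglioside breakdown, had 1174, 612 and 690 counts in NR, 943, 1077 and 923 in SP, against 158, 164 and 160 in Ab, a rise of 2.59 ± 0.09 and 2.61 ± 0.09 (SE, edgeR adjusted p = 3.91e-20 and 9.75e-20). SMPD1, acid sphingomyelinase, rose by 1.85 and 1.94, GRN, the progranulin gene, by 1.41 and 1.36, and GLA, the lysosomal galactosidase, by 1.16 and 1.10. GPR37L1, a receptor reported to bind prosaposin peptides and chosen here after its value was seen, had 5 counts in each Ab library and 34 to 86 in the others, with 3.77 in NR and 3.44 in SP.

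The closest relative of KLHDC7A moved the opposite way. KLHDC7B had 1, 1 and 0 counts in NR, 3, 1 and 6 in SP, against 189, 276 and 168 in Ab, so the Ab libraries did not overlap those of NR or SP. Its scaled ratio of Ab over NR was 268 (95% exact counting interval 73.9 to 2218), and the ratio of Ab over SP was 63.1 (34.1 to 132). Without SP3 the log2 fold change of KLHDC7B in SP was -6.64. The proteins share 39.8% of 764 aligned residues, and KLHDC7B is on another chromosome (22). Of the 8 KLHDC genes tested beside KLHDC7A, 1 rose in each comparison, while 2 fell with rods and 1 with spheres. KLHDC1, chosen after its value was seen, was called lower in NR only (-1.30, edgeR adjusted p = 0.0123, and -1.95 without NR1) and had -0.78 in SP, where it did not pass, and the difference between NR and SP was not tested for it. KLHDC9 rose by 1.53 and 1.70, KLHDC3 had 0.53 and 0.48 and KLHDC4 had -0.64 and -0.62.

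Neighbours on the chromosome were examined because a member could have moved with a wider region. Within 200 kb of the 7 genes there were 47 other protein-coding genes, of which 32 were tested. In NR, 4 rose and 3 fell by the edgeR test, beside 12.4% and 10.3% of all genes, and in SP 6 rose and 4 fell, beside 12.6% and 10.6%. The median log2 fold change of the neighbours was 0.14 in NR and 0.18 in SP.

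OLAH was the one member whose nearest neighbour without overlap was called higher. ACBD7, an acyl-CoA-binding protein 1.62 kb from OLAH, had 121, 71 and 67 counts in NR, 114, 123 and 107 in SP, against 11, 23 and 21 in Ab. It rose by 2.48 ± 0.23 in NR and 2.65 ± 0.22 in SP (SE, edgeR adjusted p = 1.78e-10 and 1.64e-11).

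ITGA7, an integrin chain that overlaps METTL7B on the other strand, had 90, 56 and 43 counts in NR, 72, 91 and 85 in SP, against 27, 36 and 25 in Ab and rose by 1.34 and 1.505. Its counts in Ab were several times those of METTL7B there, and the part of shared reads was not tested. Further from METTL7B, ORMDL2 rose by 1.24 and 1.14, RDH5 was called lower (-1.45 in both, and -2.155 in NR without NR1) and MMP19 was called higher only in SP (0.84 and 1.25). The call of ORMDL2 in SP was lost without Ab2 (0.97).

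For ABCA13 the nearest neighbour went the other way. UPP1, uridine phosphorylase, 62.7 kb from ABCA13, had 1177, 576 and 679 counts in NR, 988, 941 and 939 in SP, against 4002, 4764 and 4028 in Ab. It fell by 2.17 on the log2 scale in NR and fell by 2.15 in SP (SE 0.06 in both, edgeR adjusted p = 6.29e-23 and 7.76e-22). Around METTL7A, CSRNP2 was called lower (-1.36 and -1.29) and ATF1 only in SP (-0.95 and -1.06), while the nearest gene, HIGD1C, had 0 counts in every library and overlaps exons of other genes over 99.7% of its exon length, so its reads may have been left uncounted. Around PADI2, MFAP2 was called higher only in SP (0.84 and 1.01), a call lost in 4 alternatives, and SDHB, the nearest gene, had 0.41 and 0.38. PADI3, 129.6 kb from PADI2, was the one neighbour of PADI2 called in both comparisons, with the values given above for the PADI family, and PADI1 lies 85.7 kb away. SORCS2, which spans PSAPL1, had 0.27 and 0.18, and the nearest neighbour of KLHDC7A, IGSF21, had 0 counts in every library. Between NR and SP none of the 32 was called by edgeR (7 had an unadjusted p under 0.05), and DESeq2 gave an adjusted p for 13 and called none.

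**Figure D5:**
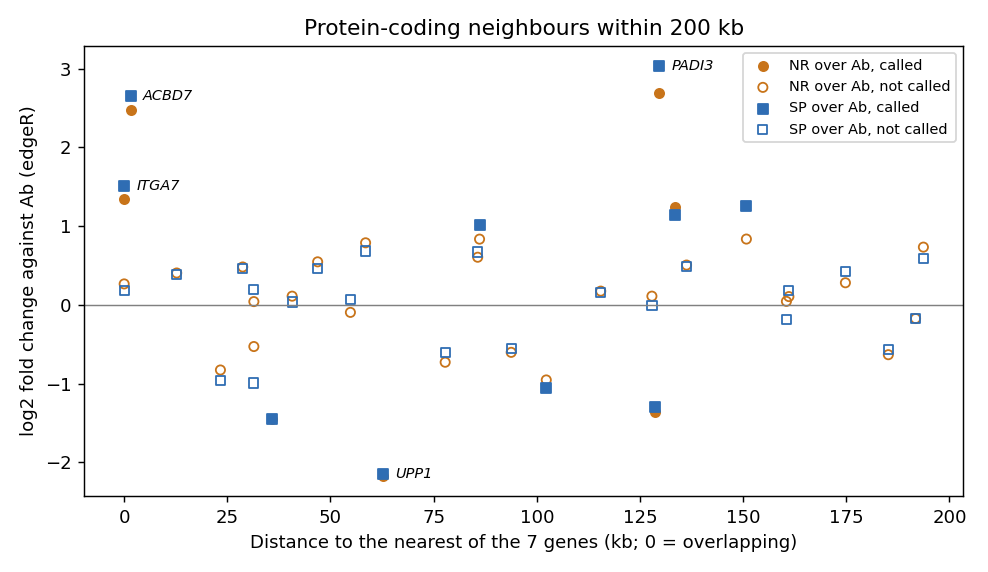
Log2 fold change against Ab (vertical axis, edgeR) of protein-coding neighbours by their distance from the nearest of the 7 genes (horizontal axis, kb), with NR as orange circles and SP as blue squares and called genes filled. ACBD7 at 1.62 kb (2.48 in NR and 2.65 in SP) and UPP1 at 62.7 kb (-2.17 and -2.15) were called in opposite directions.

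The labelled cell type was checked against markers, and several other marker lists moved with the 7 genes. KRT8, KRT18, MUC1 and ELF3 were abundant in all 9 libraries, as in epithelial cells, while KRT19 had 0 or 1 counts. EPCAM was low, at 5.18 CPM in NR, 4.89 in SP and 1.62 in Ab, and was called higher (1.68 in NR and 1.60 in SP). The 8 epithelial markers summed to 2534 to 2707 CPM in NR and SP and 991 to 1066 CPM in Ab, with KRT8 the most abundant gene. CDH1, E-cadherin, had 79 to 159 counts in NR and SP and 5 to 9 in Ab (log2 fold change 4.27 in NR and 4.52 in SP). Of 6 gastric markers, MUC5AC was the most abundant and was called lower (-2.15 and -1.75), PGC (2.77 and 2.32) and GKN1 (1.57 and 1.03) were called higher in both comparisons and CLDN18 in SP (1.86), where alone it was tested. TFF1 and TFF2 were at most 5 counts in any library and were not tested, and the list summed to 24.9 to 51.5 CPM in NR and SP and 108 to 118 CPM in Ab. KDR, which encodes the target of ramucirumab, had 1 read in NR3 and 0 in the other libraries.

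Markers of cells other than epithelium were mixed. Of 8 leukocyte markers, PTPRC, CD3E, CD68 and MS4A1 had at most 2 counts in any library, whereas CSF1R had 56 to 124 counts in NR and SP and 3 to 8 in Ab, and the list summed to 5.53 to 8.19 CPM against 1.31 to 2.24 CPM. CD68 overlaps exons of other genes over 85.6% of its exon length, so its reads may have been left uncounted. Of 7 fibroblast markers, LUM, DCN and PDGFRB were called higher (5.30, 5.14 and 4.65 in NR), COL1A1 and COL3A1 were not called, and THY1 had at most 1 count. COL1A2 was also not called and varied within groups, with 37, 0 and 0 counts in NR and 198, 278 and 33 in Ab. The fibroblast list summed to 105 to 118 CPM in NR and SP and 18.01 to 46.12 CPM in Ab, with LUM or COL1A1 the most abundant in the particle groups. Of 5 endothelial markers, CDH5 was the most abundant and was called higher (2.35 in both), VWF had 21 to 34 counts against 0 or 1, while KDR, TEK and CLDN5 had at most 4 counts in any library and were not tested, and the list summed to 20.8 to 24.1 CPM against 3.79 to 5.23 CPM. Mitochondrial genes took 4.36% to 4.66% of the counts in NR and SP and 3.41% to 3.71% in Ab. The part of these differences in the levels of the 7 genes was not tested.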

How the data were processed

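By the study's account, the authors aligned reads to hg19 (GRCh37) with HISAT2 2.1.0, and the deposited values are whole read counts per Ensembl gene, not scaled between libraries. The processing field of the deposit lists a mouse build, whereas the gene IDs are human, so GRCh37 was used here. The counting program is named differently in the study's methods and in its reporting summary. The annotation release, the use of strand and any sequencing batch are not given in the sources used here. Of 60880 IDs, 59858 were in GENCODE release 44 lifted to GRCh37, and the other 1022 took no more than 0.115% of the counts in any library. CPM used TMM scaling, and TPM used exon lengths. Each pair of groups was fitted on its 6 libraries with edgeR 4.0.16 in R 4.3.3 (filterByExpr, minimum count 10 and minimum total 15, robust quasi-likelihood test, Benjamini-Hochberg adjustment), and steps were tested on simulated counts. The alternatives were DESeq2 1.42.0, RLE size factors, no filter, 10 counts in every library, no fold minimum, 1 fit of all 9 libraries, a replicate block and each library left out. Replicate pairs differed by more than sampling noise (chi-square per gene 1.80 to 6.81), so each counted once. The members and lists were chosen with earlier results of these data known. The genes named are the members, up to 4 tested genes of smallest p in NR per related list, direct relatives, called or nearest neighbours, the 3 most similar genes per member and the markers, and others are said to be chosen after their values were seen. PECAM1 was not analysed here, and some items are not reported here. Protein identity came from global alignment of translated canonical transcripts.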

Additional observations from a re-analysis of the deposited data

Results flagged for a closer look

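LSS, lanosterol synthase and 1 of the lipid droplet proteins listed beside the METTL7 genes, was flagged because its change against Ab differed between the 2 kinds of particle, in the direct test of NR against SP. It had 2073, 1191 and 1416 counts in NR, 1374, 1685 and 1494 in SP, against 1005, 1214 and 949 in Ab, and the log2 fold change of NR over SP was 0.284 ± 0.0568 (SE, edgeR adjusted p = 0.0210).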

How the results depend on the processing

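None of the 7 genes passed the adjusted p between NR and SP under the edgeR alternatives, DESeq2 gave them no adjusted p, and their estimates kept their direction except for ABCA13 (0.03 with all libraries, -0.0593 to 0.163 with one left out, below 0 without NR2, without NR3 (-0.0207) or without SP1 (-0.0264)). Called genes against Ab, 3409 in NR and 3502 in SP, stayed within 1.5 times under all alternatives except without the fold minimum (10916 and 11002). The same setting gave 81 related genes in NR and 78 in SP in place of 28 and 27, 26 and 27 neighbours in place of 7 and 10, and 66 genes between NR and SP in place of 3. That last count was also 1 with DESeq2 and 27 without the low-count filter, and with a library left out it ran from 0 (NR2) to 28 (NR1), and leaving out SP1 or SP3 gave 1 or 5. The replicate numbers did not pair the libraries, since same-numbered libraries correlated by -0.0317 to 0.0279, and with the replicate block 3414 genes were called in NR, 3493 in SP and 4 between NR and SP, 0 members passed, 29 and 27 related genes were called, and 7 and 10 neighbours. Of the other values of single genes, 1174 stayed the same, 15 lost and 5 gained a call and 3 turned. The fitted log2 values of the 7 against Ab, not used above, moved by more than 1 SD between libraries in 46 cases and by less in 108. They rest on 0 to 7 counts per Ab library and ran over the alternatives from 7.66 to 9.78 for PADI2, from 6.22 to 9.17 for PSAPL1 and from 5.67 to 6.89 for ABCA13 in NR, so ratios with counting intervals are given instead.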
